A study of Mus musculus with 8 samples.

Results

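Peaks of C/EBPα, a transcription factor of the liver, were examined over 2 loci that code for plasma proteins made by the liver: the albumin family cluster on mouse chromosome 5 and the transthyretin gene Ttr on chromosome 18. All peaks in chr5:90840000-91010000 and in chr18:20780000-20880000 (mm9) were taken from 8 deposited peak lists. They numbered 275 and fell into 61 sites of 113353 in the series, 42 of them in the albumin family window and 19 in the Ttr window. The libraries came from livers of mice aged 8 to 10 weeks, fasted for 4 hours, in 4 groups of 2 libraries. Trib1_LSKO livers came from Trib1 flox/flox mice given 1.5e11 gc (genome copies) of AAV_Cre, an adeno-associated virus (AAV) coding for Cre recombinase, and Trib1_WT livers from Trib1 flox/flox mice given the same dose of the empty vector AAV_Null. AAV_Cebpa livers came from C57B/6 wild-type mice given 1e12 gc of a vector coding for C/EBPα, and AAV_Null livers from such mice given 1e12 gc of the empty vector. Every group thus received an AAV, and dose and genotype differed between the experiments. The labels name no promoter that drives either vector. Nothing in them states that the replicates of a group were different animals, so p-values measure only the spread between these libraries, which may be technical. Peak lists hold no transcript or protein level, so neither loss of Trib1 nor added C/EBPα could be checked in them.

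C/EBPα is a basic leucine zipper protein that binds DNA as a dimer and is among the regulators of genes that hepatocytes express at high level. Albumin (Alb) is the main protein of plasma, alpha-fetoprotein (Afp) is its fetal counterpart and is silenced in liver after birth, and afamin (Afm) is a further plasma glycoprotein of the same family. The 3 genes lie in tandem, and enhancers upstream of Alb and between Alb and Afp are known to act in liver. Transthyretin carries thyroid hormone and, with retinol-binding protein, retinol; its promoter and upstream enhancer are known for C/EBP elements.

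Promoter sequences are shown because a C/EBPα peak was called at the Alb start in all 8 lists and at the Afm start in 6. The Afp start, by contrast, had none in 7 of the 8 lists within 1.5 kb. Just beyond that distance, 1.6 kb inside Afp, a weak site was called in Trib1_LSKO replicate 1 and Trib1_WT replicate 2. The lines below give the 250 bases before each start, from RefSeq on GRCm38.p6, a later build than that of the peaks; 3 of the 4 genes were matched. Capitals mark matches on either strand to the C/EBP motif TTNNGNAA, of which TTGCNNAA is a stricter form contained in it. They lie on chromosome 5, forward strand, at chr5:90460620-90460869 for Alb, chr5:90490464-90490713 for Afp and chr5:90518699-90518948 for Afm.
Alb: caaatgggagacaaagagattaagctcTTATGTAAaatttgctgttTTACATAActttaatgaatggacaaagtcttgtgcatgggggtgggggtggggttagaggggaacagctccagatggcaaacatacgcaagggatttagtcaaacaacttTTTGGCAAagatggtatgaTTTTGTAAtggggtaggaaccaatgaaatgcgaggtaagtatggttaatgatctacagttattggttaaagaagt
Afp: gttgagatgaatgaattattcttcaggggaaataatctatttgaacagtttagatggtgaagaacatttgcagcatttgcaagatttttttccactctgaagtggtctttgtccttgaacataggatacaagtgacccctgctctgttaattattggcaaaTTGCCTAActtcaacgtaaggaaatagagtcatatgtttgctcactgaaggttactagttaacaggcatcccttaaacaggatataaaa
Afm: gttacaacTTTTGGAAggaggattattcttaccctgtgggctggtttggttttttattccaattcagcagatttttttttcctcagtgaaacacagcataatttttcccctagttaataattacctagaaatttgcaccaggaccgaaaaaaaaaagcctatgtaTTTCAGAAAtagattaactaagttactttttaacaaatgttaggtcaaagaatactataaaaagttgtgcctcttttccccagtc

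The Alb stretch held 4 matches to TTNNGNAA, the Afp stretch 1 and the Afm stretch 3, of which 2 overlapped. One match in Alb, TTTGGCAA, and the single match in Afp, TTGCCTAA, also met the stricter form; Afm had none. Among 32851 promoter stretches of the same length, 36.8% held TTNNGNAA and 9.56% held TTGCNNAA. The Alb match TTTTGTAA, whose first base is 75 bases before the start, lies in the element known as the D site of the albumin promoter, which C/EBP proteins and DBP are known to bind.

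Peak lists differed in length and depth. They held 50075 and 53072 peaks in Trib1_LSKO, 53327 and 54691 in Trib1_WT, 59564 and 80394 in AAV_Cebpa, and 46348 and 49052 in AAV_Null. Depth relative to the shallowest library, AAV_Null replicate 1, was 1.18 and 1.28 in Trib1_LSKO, 1.14 and 1.93 in Trib1_WT, 1.85 and 2.27 in AAV_Cebpa, and 1.17 in AAV_Null replicate 2. Peaks of both loci rested on 10 to 295 sequence tags, as recovered from the deposited values. The weakest, with 10 tags in Trib1_WT replicate 1, has an exact 95% Poisson interval of 4.8 to 18.4 tags, and the strongest, with 295 tags in AAV_Cebpa replicate 2, one of 262 to 331, which covers counting error only. Strength is given as a percentile within a library's own list, where 100 is the strongest peak, and no change is read from it between lists of unequal length.

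Both loci were rich in sites shared by all libraries. In all 8 lists, 19 of the 61 sites were called (31.1%), against 24318 of all 113353 sites (21.5%), and 18 of the 61 were called in 1 list only (29.5%, against 27.1%). The albumin family window held 13 sites common to the 8 lists. Of 15525 genome tiles of the same length, 170 kb, 47 (0.303%) held at least as many, and the median tile held 0. The Ttr window held 6, a number reached by 2.85% of 26388 tiles of 100 kb. Midpoints of the 19 common sites differed between the 8 lists by 5 to 180 bp, with a median range of 41 bp.

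**Figure D1:**
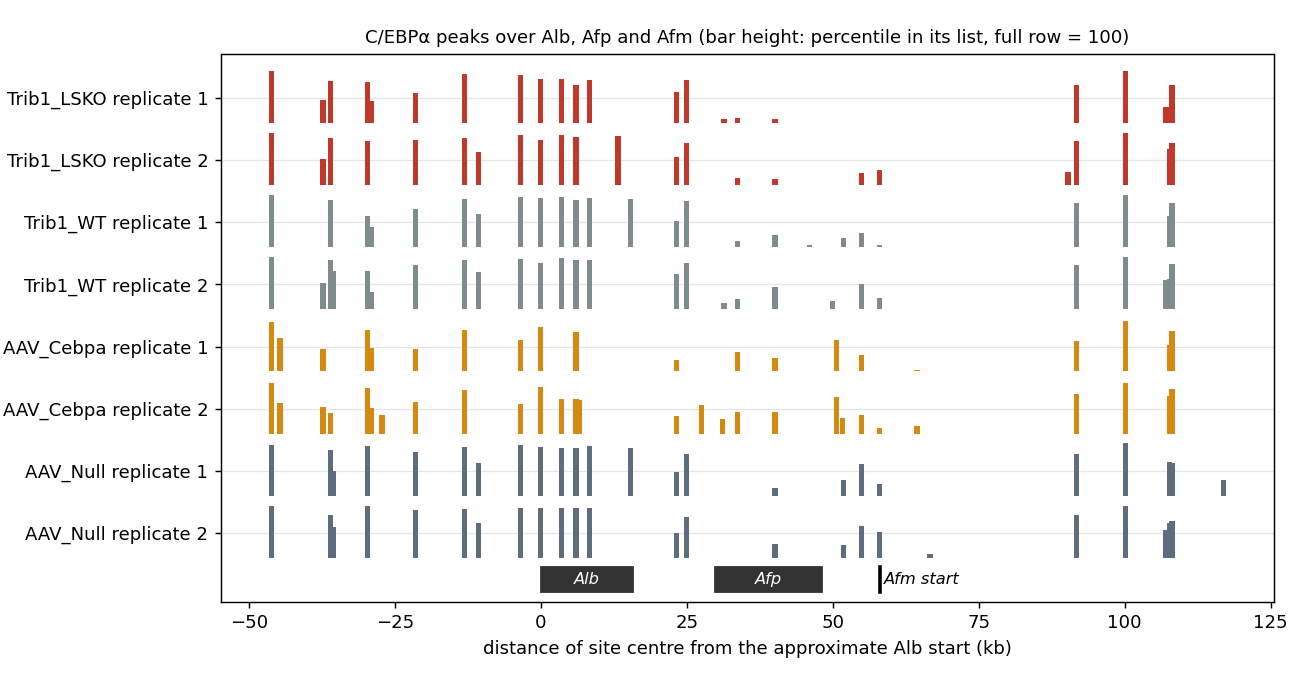
Peaks of the 8 libraries over Alb, Afp and Afm. The horizontal axis is the distance from the approximate Alb start in kb, each row is a library, bar height is the percentile of the peak in its own list, and gene bodies are drawn at the bottom (only the start of Afm is given in the coordinates used). Tall bars stand from 46.1 kb upstream of Alb into its body in the Trib1 groups and in AAV_Null. AAV_Cebpa also has tall bars 46.1, 29.6 and 13.0 kb upstream and at the Alb promoter. In the 3' part of the Alb body, bars stand only in Trib1_LSKO replicate 2, Trib1_WT replicate 1 and AAV_Null replicate 1. Bars over Afp are low in all rows, and a tall bar 42.0 kb past the Afm start is present in all 8 rows.

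The Alb promoter was occupied in all 8 lists. The site lay 59 bp upstream of the approximate Alb start at 90889900 (chr5:90889723-90889960) and stood at the percentiles 81.4 and 84.1 in Trib1_LSKO and 91.7 and 87.0 in Trib1_WT. In the second experiment it stood at 83.6 and 88.9 in AAV_Cebpa and at 92.1 and 94.0 in AAV_Null. All 8 values belonged to the strongest 20% of a list.

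Upstream of Alb, 13 sites were spread over 49.9 kb, 6 of them in all 8 lists. The most distal, 46.1 kb upstream (chr5:90843677-90843906), was among the strongest peaks of every library, at 97.6 and 97.2 in Trib1_LSKO, 98.1 and 98.0 in Trib1_WT, 93.5 and 95.6 in AAV_Cebpa, and 96.3 and 97.9 in AAV_Null. A site 13.0 kb upstream (chr5:90876749-90877001) stood at 91.8 and 88.5 in Trib1_LSKO, 90.4 and 92.1 in Trib1_WT, 78.8 and 81.9 in AAV_Cebpa, and 92.6 and 92.2 in AAV_Null. In every list it ranked below the most distal site. Closer to the promoter, 3.4 kb upstream (chr5:90886355-90886571), a site outside the naming rule stood out once its values had been seen, with 90.3 and 94.8 in Trib1_LSKO, 94.7 and 95.5 in Trib1_WT, 60.2 and 56.2 in AAV_Cebpa, and 96.3 and 94.2 in AAV_Null.

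Of the sites upstream of Alb that met the definition of gained in AAV_Cebpa (a peak in both treated lists and in neither control list), all 3 were of middling strength. One 44.7 kb upstream (chr5:90845132-90845360) was listed in AAV_Cebpa alone, at 62.4 and 58.4. One 37.3 kb upstream (chr5:90852498-90852731) stood at 42.5 and 49.9 in AAV_Cebpa, but also at 42.1 and 49.0 in Trib1_LSKO and at 49.1 in Trib1_WT replicate 2. One 29.1 kb upstream (chr5:90860740-90860958) stood at 44.9 and 49.2 in AAV_Cebpa, at 40.4 in Trib1_LSKO replicate 1 and at 38.4 and 32.0 in Trib1_WT. Only the first of these was therefore absent from both empty-vector groups. The AAV_Null lists held a strong peak 595 and 603 bp away from the third.

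Losses upstream of Alb (a peak in both control lists and in neither treated list) numbered 2 in AAV_Cebpa. A site 35.5 kb upstream (chr5:90854274-90854502) stood at 47.5 and 58.7 in AAV_Null and at 73.1 in Trib1_WT replicate 2. AAV_Cebpa replicate 2 had a peak of percentile 38.5 at 555 bp from that site. A site 10.7 kb upstream (chr5:90879004-90879386), called in 5 lists, stood at 62.3 and 65.6 in AAV_Null, at 61.7 in Trib1_LSKO replicate 2 and at 62.9 and 70.6 in Trib1_WT. It was the most loosely placed site upstream of Alb, with midpoints spread over 183 bp.

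The Alb body held 6 sites in 15.8 kb, and most of them were strong where called. The site 8.3 kb into the gene (chr5:90898111-90898320) met the definition of lost in AAV_Cebpa: it stood at 94.3 and 94.5 in AAV_Null, at 79.9 in Trib1_LSKO replicate 1 and at 93.0 and 93.3 in Trib1_WT, and was missing from both AAV_Cebpa lists and from Trib1_LSKO replicate 2. A peak near the 3' end, 13.2 kb past the start (chr5:90903037-90903236), was listed in Trib1_LSKO replicate 2 alone, at 92.0. A peak 15.4 kb past the start (chr5:90905205-90905404) was listed at 91.4 in Trib1_WT replicate 1 and at 90.6 in AAV_Null replicate 1, at identical positions. With strong peaks called in 1 list and missing from its replicate, a missing call is not read as absence of binding.

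A pair of further Alb body sites, outside the naming rule, was called in at least 7 lists. At 3.6 kb (chr5:90893364-90893616) the percentiles were 81.9 and 93.8 in Trib1_LSKO, 93.7 and 96.6 in Trib1_WT, 66.0 in AAV_Cebpa replicate 2 with no call in replicate 1, and 91.4 and 94.1 in AAV_Null. At 6.1 kb (chr5:90895842-90896075) they were 70.9 and 90.4 in Trib1_LSKO, 88.9 and 93.8 in Trib1_WT, 73.9 and 66.0 in AAV_Cebpa, and 91.4 and 95.6 in AAV_Null. In this stretch AAV_Cebpa had 1 and 3 peaks and AAV_Null 4 and 3, with Trib1_LSKO at 3 and 3 and Trib1_WT at 4 and 3.

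Between Alb and Afp, where enhancers of Afp are known in the mouse, 3 sites were found. The site 4.8 kb upstream of Afp (chr5:90914769-90914981) was missing from both AAV_Cebpa lists; it stood at 78.9 and 77.1 in AAV_Null, 80.4 and 78.6 in Trib1_LSKO, and 86.7 and 86.4 in Trib1_WT. The 6 lists that held it placed its midpoint within 13 bp, and in both AAV_Cebpa lists the nearest peak lay 1695 and 1713 bp away. That neighbour, 6.5 kb upstream of Afp (chr5:90913063-90913303), was called in all 8 lists, at 58.0 and 52.6 in Trib1_LSKO, 49.6 and 66.8 in Trib1_WT, 20.8 and 32.9 in AAV_Cebpa, and 44.2 and 48.2 in AAV_Null. The third, 2.2 kb upstream (chr5:90917366-90917565), was listed at 54.5 in AAV_Cebpa replicate 2 alone.

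Over Afp itself binding was weak. The site nearest the start, 1.3 kb inside the gene (chr5:90920936-90921135), was listed in AAV_Cebpa replicate 2 alone, at 28.1. A site 3.9 kb inside (chr5:90923526-90923763) met the definition of gained in AAV_Cebpa, with 37.4 and 41.0 there and no call in AAV_Null, yet it was listed at 9.5 and 13.4 in Trib1_LSKO and at 11.0 and 18.6 in Trib1_WT. A site 10.3 kb inside (chr5:90929835-90930214) was called in all 8 lists, at 6.2 and 10.5 in Trib1_LSKO, 23.2 and 41.7 in Trib1_WT, 25.6 and 41.8 in AAV_Cebpa, and 15.0 and 27.4 in AAV_Null. No peak in the Afp body exceeded the percentile 41.8 in any list, whereas none in the Alb body was below 62.8.

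Between Afp and Afm, 6 sites lay in 10 kb, none of them in all 8 lists. One 7.5 kb upstream of Afm (chr5:90940421-90940623) was listed in AAV_Cebpa alone, at 60.2 and 68.5. One 6.2 kb upstream (chr5:90941668-90941910) was missing from AAV_Cebpa and stood at 29.5 and 25.4 in AAV_Null and at 17.8 in Trib1_WT replicate 1; AAV_Cebpa replicate 2 had a peak of percentile 30.1 at 261 bp from it (chr5:90941429-90941628), which no other list held. One 3.2 kb upstream (chr5:90944654-90944899) stood at 22.7 in Trib1_LSKO replicate 2, 25.8 and 47.4 in Trib1_WT, 31.9 and 35.8 in AAV_Cebpa, and 59.3 and 61.2 in AAV_Null.

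At the Afm start, 112 bp upstream of its approximate position (chr5:90947732-90948044), a weak site was called in 6 lists. It stood at 28.7 in Trib1_LSKO replicate 2, 3.3 and 20.3 in Trib1_WT, 11.0 in AAV_Cebpa replicate 2, and 21.6 and 49.4 in AAV_Null. The strongest site of the whole window lay 42.0 kb past the Afm start (chr5:90989928-90990132), at 97.7 and 98.2 in Trib1_LSKO, 99.0 and 98.7 in Trib1_WT, 96.2 and 96.1 in AAV_Cebpa, and 99.5 and 99.1 in AAV_Null. Its midpoint varied by 5 bp over the 8 lists, the least of the 19 common sites. The gene that follows Afm in the RefSeq order is Albfm1, a further gene of the albumin superfamily; its mm9 position was not used here.

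Of the other sites past the Afm start, one at 33.6 kb (chr5:90981506-90981756) stood at 70.9 and 83.0 in Trib1_LSKO, 84.0 and 83.0 in Trib1_WT, 57.8 and 75.5 in AAV_Cebpa, and 79.7 and 81.1 in AAV_Null. One at 50.0 kb (chr5:90997900-90998141) stood at 70.9 and 79.0 in Trib1_LSKO, 82.6 and 85.4 in Trib1_WT, 75.8 and 85.3 in AAV_Cebpa, and 61.4 and 70.0 in AAV_Null. Ranked among the sites common to all 8 lists, it stood at 53.9 and 63.2 in AAV_Cebpa and 37.2 and 46.8 in AAV_Null. A site 6.3 kb past the Afm start (chr5:90954223-90954444) was listed in AAV_Cebpa alone, near the bottom of both lists, at 2.2 and 13.6 on 13 and 23 tags.

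**Figure D2:**
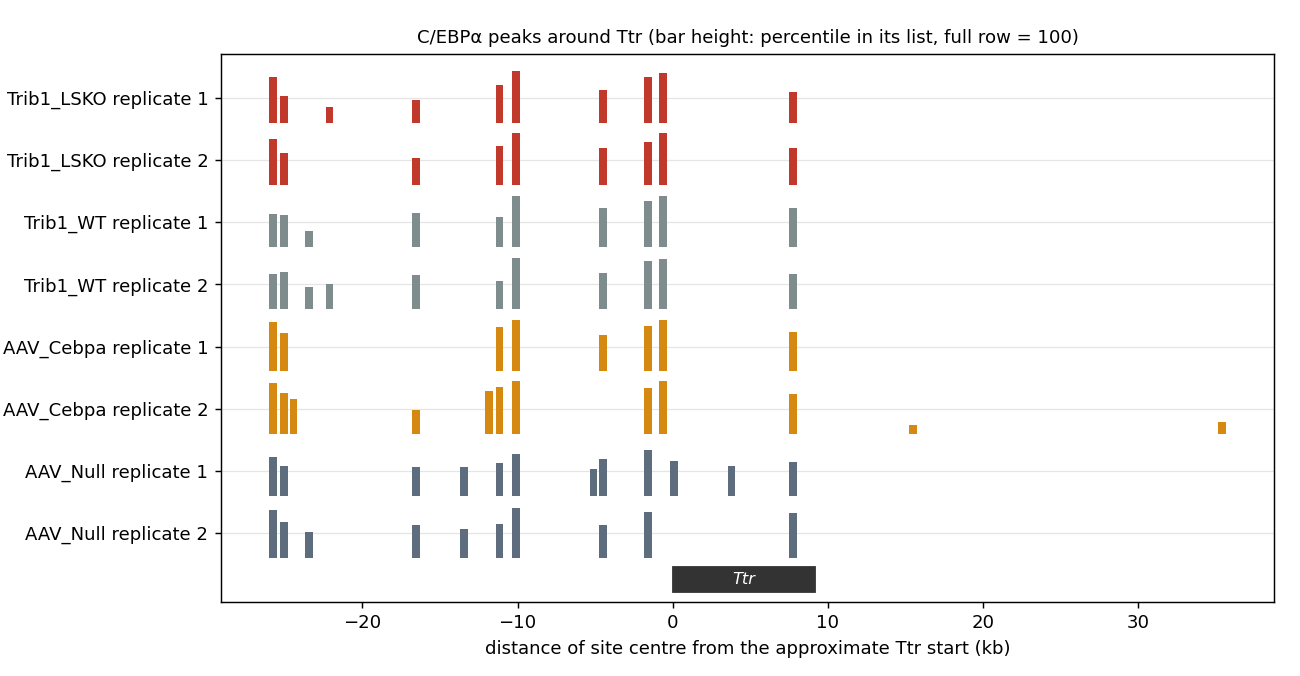
Peaks of the 8 libraries around Ttr. The horizontal axis is the distance from the approximate Ttr start in kb, each row is a library, and bar height is the percentile of the peak in its own list. Most peaks lie upstream of the gene, and the peak 608 bp before the start is present in 6 rows and missing from both AAV_Null rows.

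Around Ttr, 14 of the 19 sites lay upstream of the gene, within 25.8 kb of its approximate start at 20823700, and 3 lay in the gene. The strongest, by mean percentile over the lists that held it, lay 608 bp upstream (chr18:20822974-20823210), at 93.3 and 97.2 in Trib1_LSKO, 96.8 and 95.5 in Trib1_WT, and 98.1 and 99.3 in AAV_Cebpa, and was missing from both AAV_Null lists, so it met the definition of gained. Whether the caller or a later step dropped peaks close to others is not given in the labels, so a missing call beside other peaks is only that. AAV_Null replicate 1 listed a peak 676 bp downstream of it, at percentile 65.0, directly at the gene start (chr18:20823669-20823868), and AAV_Null replicate 2 had its nearest peak 1000 bp upstream. Since the site was listed in both Trib1_WT libraries, it was not confined to livers with added C/EBPα.

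A site 1.6 kb upstream of Ttr (chr18:20821972-20822214) was called throughout, at 85.7 and 80.7 in Trib1_LSKO, 87.7 and 90.7 in Trib1_WT, 85.5 and 85.7 in AAV_Cebpa, and 86.5 and 87.9 in AAV_Null. A site 10.1 kb upstream (chr18:20813461-20813711) stood at 97.1 and 97.5 in Trib1_LSKO, 97.1 and 96.2 in Trib1_WT, 97.2 and 99.1 in AAV_Cebpa, and 78.5 and 94.6 in AAV_Null. Except for AAV_Null replicate 1, each list placed it above the percentile 94. In the gene body, the site at 7.7 kb (chr18:20831333-20831559) stood at 56.8 and 70.0 in Trib1_LSKO, 73.9 and 66.3 in Trib1_WT, 73.9 and 74.9 in AAV_Cebpa, and 63.3 and 85.5 in AAV_Null, with overlap in both experiments.

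The remaining named sites around Ttr were weaker or listed once. The only site of either locus that met the definition of lost in Trib1_LSKO lay 23.5 kb upstream of Ttr (chr18:20800127-20800340) and stood at 30.3 and 42.7 in Trib1_WT and at 49.4 in AAV_Null replicate 2. A site 13.5 kb upstream (chr18:20810120-20810330) was listed in AAV_Null alone, at 54.5 and 55.0. A peak 3.8 kb into Ttr (chr18:20827398-20827597) was listed at 55.9 in AAV_Null replicate 1 alone. Downstream of Ttr, toward the neighbouring gene B4galt6, the sole 2 peaks, 15.5 and 35.4 kb past the start, were listed in AAV_Cebpa replicate 2 alone, at 16.4 and 21.5.

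Sites outside the naming rule, 25 in all, were called in 1 to 8 lists, at percentiles of 3.3 to 98.3. Among them, chosen after its values were seen, a site 36.1 kb upstream of Alb (chr5:90853720-90853966) stood at 79.4 and 87.5 in Trib1_LSKO, 88.0 and 93.2 in Trib1_WT, 38.5 in AAV_Cebpa replicate 2 with no call in replicate 1, and 87.6 and 81.4 in AAV_Null. Likewise chosen, a site 4.5 kb upstream of Ttr (chr18:20819124-20819343) stood at 61.4 and 70.0 in Trib1_LSKO, 73.3 and 69.3 in Trib1_WT, 69.1 in AAV_Cebpa replicate 1 with no call in replicate 2, and 69.0 and 62.7 in AAV_Null. At each of them 1 AAV_Cebpa library had no call.

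The first comparison asked how loss of Trib1, which encodes the pseudokinase Tribbles-1, altered C/EBPα occupancy at these loci. None of the 61 sites was gained in Trib1_LSKO (3.15% of all sites of the series were) and 1 was lost (1.64%, against 3.23% of all sites). On 61 sites, counts this small cannot be set apart from the shares over all sites. A further 15 albumin family sites and 1 Ttr site were called in some but not all of the 4 libraries and met neither definition. The albumin family window held 22 and 23 peaks in Trib1_LSKO and 25 and 27 in Trib1_WT (difference of means -3.5; exact two-sided permutation p = 0.333, adjusted p = 1.0 over 4 tests). The Ttr window held 10 and 9 peaks in Trib1_LSKO and 10 and 11 in Trib1_WT (difference -1.0; exact permutation p = 0.667, adjusted p = 1.0). With 2 libraries against 2, the smallest p that this test can give is 0.333, so no test here could pass a threshold of 0.05.

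To compare strength between lists of unequal length, each library's 24318 sites common to all 8 lists were ranked among themselves, which gives a common-site percentile. The 13 common albumin family sites averaged 53.2 and 63.7 in Trib1_LSKO and 60.3 and 65.6 in Trib1_WT, a difference of -4.54 points with overlapping groups (exact permutation p = 0.667, adjusted p = 0.667). Without Trib1_LSKO replicate 1 the difference was 0.71. The 6 common Ttr sites averaged 57.1 and 59.6 in Trib1_LSKO and 51.4 and 52.4 in Trib1_WT, a difference of 6.45 points (exact permutation p = 0.333, adjusted p = 0.444). The median difference of the 6 sites had the other sign, -2.4 points, since 2 sites far above 0 set the mean, and with the window narrowed by 20 kb on each side, which leaves 4 of the sites, the mean was 2.6. Over the 13 albumin family sites the median difference was -4.3, against -1.72 over all common sites. Over both loci, 4 of 19 sites (21.1%) had both Trib1_LSKO values above both Trib1_WT values and 6 (31.6%) had them below, close to the 22.2% and 31.1% among all common sites.

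A few sites, chosen after their values were seen, departed further. A site 25.8 kb upstream of Ttr (chr18:20797803-20798035) had common-site percentiles of 72.7 and 73.4 in Trib1_LSKO and 33.4 and 38.3 in Trib1_WT, a difference of 37.2 points. Of all common sites, 95% had a difference below 26.0. The same site stood at 86.7 and 85.5 in AAV_Cebpa and at 53.7 and 80.4 in AAV_Null. A site 11.2 kb upstream of Ttr (chr18:20812428-20812655) had 49.3 and 50.9 in Trib1_LSKO and 26.4 and 23.5 in Trib1_WT. Its difference of 25.1 points lay just below that bound of 26.0. It had 68.2 and 69.8 in AAV_Cebpa and 38.4 and 40.2 in AAV_Null. At both of these distal Ttr sites, and at the site 10.1 kb upstream of Ttr, the treated libraries lay above their controls in both experiments. They lay below their controls in both experiments at the Alb promoter and at the sites 46.1 kb upstream of Alb, 42.0 kb past the Afm start and 1.6 kb upstream of Ttr. At the sites 29.6 kb upstream of Alb and 50.0 kb past the Afm start, the 2 experiments went in opposite directions. The share of all common sites with the same direction in both experiments was not computed, so no shared response is read from these sites.

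**Figure D3:**
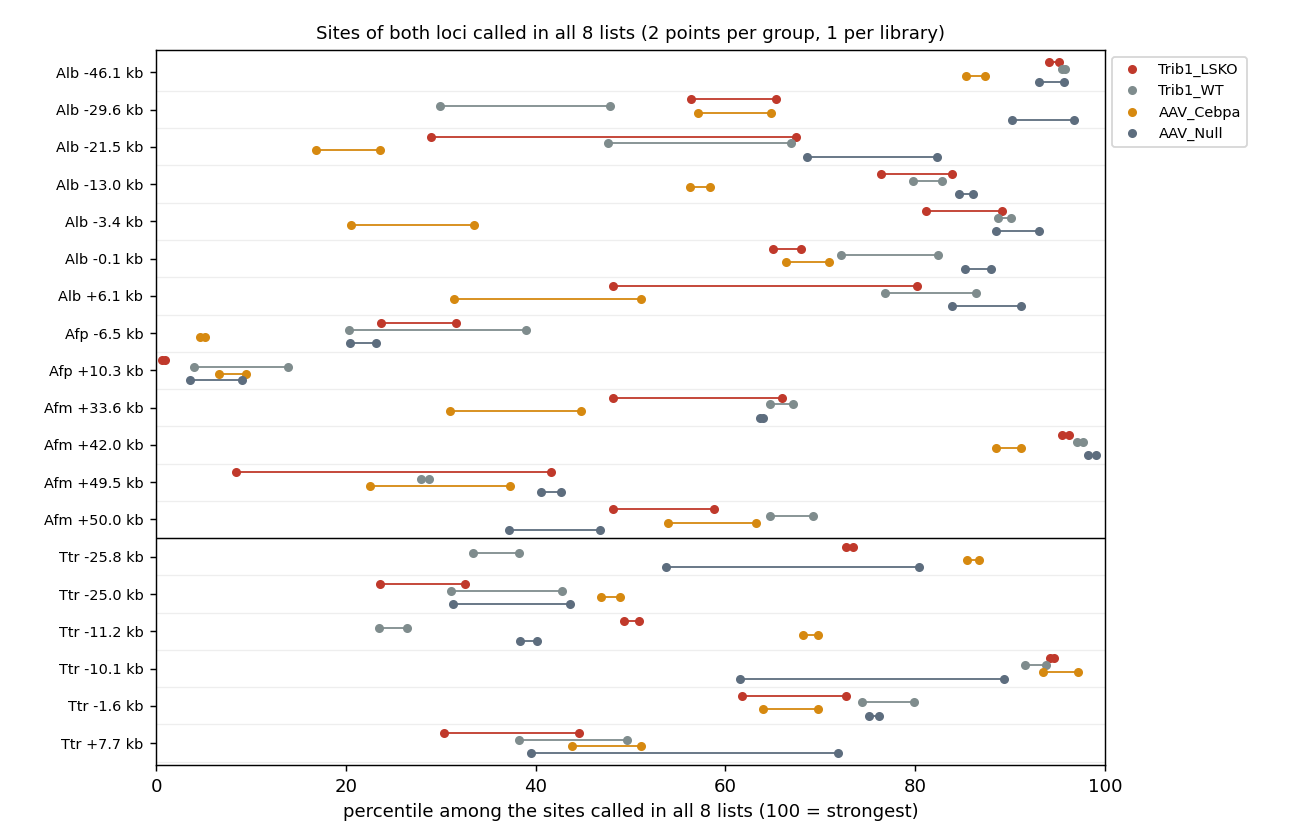
Strength of the 19 sites called in all 8 lists. The horizontal axis is the percentile among all 24318 common sites, each row is a site named by its distance from the nearest gene start (albumin family above the line, Ttr below it), and each group has 2 points, 1 per library. The AAV_Cebpa points lie left of the AAV_Null points in 11 of the 13 albumin family rows and right of them in 4 of the 6 Ttr rows. Among all common sites, 41.1% were lower and 30.9% higher in this sense.

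The second comparison asked what added C/EBPα did at these loci. The common albumin family sites ranked lower on average in AAV_Cebpa than in AAV_Null. Of the 6 common Ttr sites, 4 had both AAV_Cebpa values above both AAV_Null values and 1 had them below. Among all common sites these shares were 30.9% and 41.1%. Most of the mean difference of the Ttr sites rested on AAV_Null replicate 1. Of the 61 sites, 7 were gained (11.5%, against 19.5% of all sites) and 6 were lost (9.84%, against 5.33%). With the lists cut to equal length, 5 were gained (14.2% of all sites) and 9 lost (10.8%). In the strongest 50% of each list 3 were gained (21.9%) and 7 lost (6.1%). The balance of gains and losses thus depended on how much of each list was used. At equal length the shares over all sites moved the same way, from 19.5% gained and 5.33% lost. How many sites these loci kept in the cut lists is not given here, so these counts have no share of their own. The 7 sites gained with the full lists comprised the 3 upstream of Alb and the single ones described in Afp, between Afp and Afm, past the Afm start and before Ttr. The albumin family window held 20 and 28 peaks in AAV_Cebpa and 24 and 24 in AAV_Null (difference 0.0), and the Ttr window 8 and 12 in AAV_Cebpa and 12 and 10 in AAV_Null (difference -1.0; exact permutation p = 1.0 for both). The AAV_Cebpa lists were the longer ones: at equal length the difference in albumin family peaks was -6.0, and in the strongest 50% of each list it was -5.0, each with the groups apart (exact permutation p = 0.333).

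Common-site percentiles of the 13 albumin family sites averaged 44.5 and 46.4 in AAV_Cebpa and 66.5 and 70.1 in AAV_Null, or 45.5 ± 1.34 and 68.3 ± 2.53 (SD, n = 2 each), a difference of -22.8 points. This is larger than the spread between replicates, and the exact permutation p was 0.333, two-sided and the smallest possible (adjusted p = 0.444). Both AAV_Cebpa values lay below both AAV_Null values at 11 of the 13 sites, among them all 6 upstream of Alb, and above them at 1. The median difference over the 13 sites was -18.0 points, against -2.26 over all 24318 common sites. Over both loci, 12 of 19 sites (63.2%) were lower and 5 (26.3%) higher in this sense, against 41.1% and 30.9% of all common sites.

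The site 3.4 kb upstream of Alb had the widest gap of the 19 sites, with common-site percentiles of 33.5 and 20.5 in AAV_Cebpa and 93.0 and 88.5 in AAV_Null, a difference of -63.7 points. It was followed by the site 21.5 kb upstream of Alb (chr5:90868307-90868562), with 16.9 and 23.6 in AAV_Cebpa and 68.6 and 82.3 in AAV_Null, and by the site 6.1 kb inside Alb, with 51.1 and 31.4 in AAV_Cebpa and 83.9 and 91.2 in AAV_Null. Of all common sites, 5% had a difference below -35.2, and these 3 lie beyond that value. The Alb promoter differed less, with 66.4 and 70.9 in AAV_Cebpa and 85.3 and 88.0 in AAV_Null. At the site 42.0 kb past the Afm start the values were 91.2 and 88.5 in AAV_Cebpa and 99.0 and 98.2 in AAV_Null. The gap was thus wider at sites 3.4 kb before and 6.1 kb inside Alb than at the promoter between them.

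The 6 common Ttr sites averaged 69.7 and 67.9 in AAV_Cebpa and 49.9 and 66.95 in AAV_Null, a difference of 10.3 points (exact permutation p = 0.333, adjusted p = 0.444). Without AAV_Null replicate 1 the difference was 1.81, so most of it rested on that library. The site 10.1 kb upstream shows this: its common-site percentile was 93.5 and 97.2 in AAV_Cebpa but 61.5 in AAV_Null replicate 1 and 89.4 in replicate 2. The site 11.2 kb upstream, by contrast, separated AAV_Cebpa from both AAV_Null libraries, by 29.7 points. The site 1.6 kb upstream of the start ran the other way, with 69.8 and 64.0 in AAV_Cebpa and 75.1 and 76.2 in AAV_Null.

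**Figure D4:**
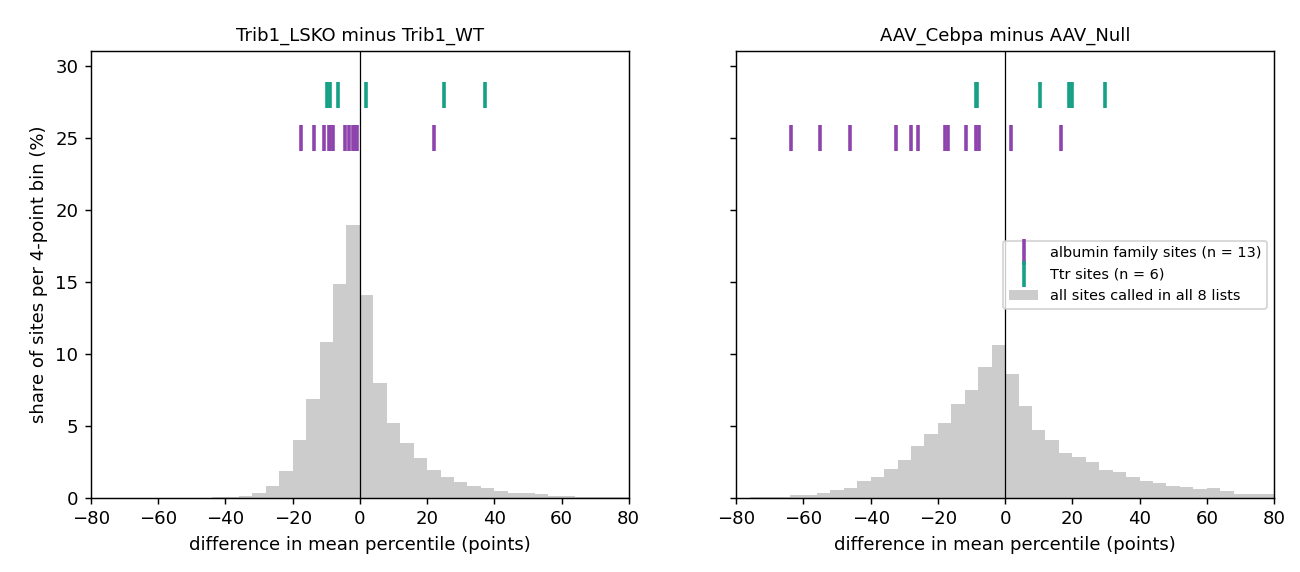
Differences in common-site percentile at both loci beside all common sites. The horizontal axis is the treated mean minus the control mean in percentile points, grey bars give the share of all 24318 common sites per bin, and coloured ticks mark the 13 albumin family and 6 Ttr sites. Albumin family ticks cluster left of 0 for AAV_Cebpa, with a median of -18.0, while for Trib1_LSKO most ticks of both loci lie within the body of the bars.

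Summed signal, a measure chosen after the data were seen and taken from the same peaks without ranking, gave differences of the same sign as the mean ranks. The groups of the first experiment, which overlapped by mean rank for the albumin family, did not overlap by summed signal. Of every 10000 units of signal summed over all common sites of a library, the 13 albumin family sites held 4.64 and 4.91 in AAV_Cebpa and 8.06 and 8.52 in AAV_Null. The ratio of means was 0.576 (exact permutation p = 0.333). In the first experiment they held 5.71 and 6.66 in Trib1_LSKO and 6.73 and 7.02 in Trib1_WT, a ratio of 0.899 (exact permutation p = 0.333). An even spread over common sites would give 5.35. The 6 Ttr sites held 3.26 and 3.22 in AAV_Cebpa and 2.01 and 3.15 in AAV_Null, and 2.73 and 2.79 in Trib1_LSKO and 2.48 and 2.51 in Trib1_WT. These shares say how signal was divided among sites within a library and not how much C/EBPα was bound.

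Several of the calls above have a neighbour. Over the 61 sites and 8 lists there were 213 missing calls. In 58 of them the same list had another peak within 1 kb of the site centre, and in 138 within 3 kb. The matching shares over all sites of the series were not computed. The part of such neighbours in the gains and losses was not tested beyond joining peaks over a wider window. With windows of 1000 bp, 5 sites were gained (19.6% of all sites) and 4 lost (4.82%) in AAV_Cebpa, and 0 were lost in Trib1_LSKO (3.22%). AAV_Cebpa libraries were the deeper ones of their experiment (1.85 and 2.27, against 1 and 1.17), and the part of depth in these calls was not tested.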

How the data were processed

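C/EBPα ChIP-seq peak lists, 1 per library, were deposited by the authors with a coordinate and a signal column; all peaks span 200 bp. Bowtie, HOMER and the mouse build mm9 are named in the submitters' processing notes. For their versions, the peak threshold and the handling of duplicates, the sources used here give nothing. Deposited signal values were whole multiples of 1 step per library within rounding (0.051), and the inverse of the step was taken as relative depth and the multiple as sequence tags. Sites were built by joining all 200 bp windows around peak midpoints sharing 1 bp or more (Python 3.11.15, pandas 2.3.3, numpy 2.4.6), and coordinates are 1-based. Gene starts and ends are approximate mm9 positions that came with the definition of the loci. Libraries were compared by exact two-sided permutation tests with Benjamini-Hochberg adjustment over 4 tests per measure; single sites were counted without a test beside the share over all sites. The counting was tested on simulated lists with sites far apart, which leaves crowded sites such as those of these loci untested. Values are given for the 3 sites of each stretch (gene body or interval) with the highest mean percentile, those nearest a gene start and all gained or lost sites: 36 of 61. The members, lists and tests were chosen with earlier results of these data known.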

Additional observations from a re-analysis of the deposited data

How the results depend on the processing

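Of 176 values recomputed under alternatives, 150 kept their direction or lay within 1.5 times the main count, 24 moved further or had no direction to keep because one of the values was 0, and 2 differences reversed. The lower rank of the albumin family sites in AAV_Cebpa held in every setting run on the percentile scale, from -31.7 points with windows narrowed by 20 kb to -11.3 with percentiles in the full lists. With the strongest 50% of each list, 3 sites were gained (21.9% of all sites) and 7 lost (6.1%) in AAV_Cebpa and 0 lost in Trib1_LSKO (3.91%); taking only presence, and not absence, from these strongest peaks gave 3 (6.13%), 4 (1.26%) and 0 (0.378%). Windows of 1000 bp, chosen after the data were seen, gave 0 lost in Trib1_LSKO (3.22%). Narrowed windows hold 9 albumin family and 4 Ttr common sites, of which 3 were lower in Trib1_LSKO (31.1% of all common sites) and 2 higher in AAV_Cebpa (30.9%). The difference in albumin family peaks in AAV_Cebpa, 0.0 with all peaks, was -6.0 at equal list length, -5.0 in the strongest 50% and 0.5 with narrowed windows, and -4.0 to 4.0 leaving out 1 library. Leaving out 1 library at a time gave 0 to 2 sites gained in Trib1_LSKO (2 without Trib1_LSKO replicate 1, where 6.72% of all sites were gained) and 3 to 4 lost (4 without Trib1_LSKO replicate 2, with 6.55% of all sites, or Trib1_WT replicate 2, with 7.9%). In AAV_Cebpa it gave 7 to 16 gained (16 without AAV_Cebpa replicate 1, with 35.6% of all sites) and 7 to 11 lost (10 without AAV_Cebpa replicate 2, with 8.31%, and 11 without AAV_Null replicate 2, with 8.84%). Of the common sites, 7 to 13 were lower in Trib1_LSKO (13 without Trib1_LSKO replicate 2, with 46.7% of all common sites, and 10 without Trib1_WT replicate 1, with 44.0%); with 1 library in a group the definitions are looser and the shares over all sites move too. The rank difference of albumin family sites in Trib1_LSKO ran from -9.79 to 0.71, with 0.71 without Trib1_LSKO replicate 1, and the difference in Ttr peaks in AAV_Cebpa from -3.0 to 1.0, with 1.0 without AAV_Cebpa replicate 1 and 0.0 without AAV_Null replicate 1. The cause of these shifts was not tested. Equal replicate numbers are not said to pair libraries, and their deviations correlated at 0.14 and -0.07 over common sites; with the number as a replicate block the differences were the same, for example -22.8 points for the albumin family in AAV_Cebpa, with a smallest possible p of 0.5 in the exact sign-flip test. The peaks over Afp rested on 10 to 50 tags, and the part of depth in their calls was not tested.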

Other observations

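The 2 groups given an empty vector, which differed in genotype and vector dose, ranked some albumin family sites differently. At the site 29.6 kb upstream of Alb (chr5:90860147-90860395) the common-site percentile was 56.4 and 65.3 in Trib1_LSKO and 29.9 and 47.8 in Trib1_WT, whereas it was 57.1 and 64.8 in AAV_Cebpa and 90.2 and 96.7 in AAV_Null. The difference between the control groups was not tested. Both treated groups thus lay between the control groups, above their own control in one experiment and below it in the other.

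Trib1_LSKO replicates lay far apart at some common sites of the albumin family window and close at others. The site 21.5 kb upstream of Alb stood at a common-site percentile of 29.0 in replicate 1 and 67.4 in replicate 2, the site 6.1 kb inside Alb at 48.2 and 80.2, and the site 49.5 kb past the Afm start at 8.4 and 41.6. The Alb promoter stood at 65.0 and 68.0, and the site 13.0 kb upstream of Alb at 83.9 and 76.4.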
